A study of Rattus norvegicus with 12 samples.

Results

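Fatty acid oxidation and ketone body metabolism were followed through 44 genes in whole rat kidney. The members were chosen by name, from enzymes, carriers and binding proteins of these pathways, by a rule that uses no measured value, although earlier results of these data were known when the list was drawn up. Each gene was represented by 1 probe of the CodeLink Rat Whole Genome array, an array of short oligonucleotide probes read in 1 colour; where several probes named the gene, the one with the highest mean signal over the 12 arrays was taken. Of the 44 genes, 41 had a probe that named that gene alone. No probe named Fabp3, and the probes of Eci2 and Acaa1a also named a paralog, so these 3 genes have no value here. Fabp1 and Oxct1 were above background on 1 of the 12 arrays each and Acadsb on none, which left 38 members among the 25398 probes tested.

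The rats were male Fischer 344 animals, an inbred strain used in studies of ageing, with 4 arrays labelled as biological replicates in each of 3 groups. Aged CR rats were 24 months old and calorically restricted: food was cut by 10% at 10 weeks of age, by 25% at 15 weeks and by 40% from 4 months on. Aged AL rats were 24 months old and young rats 4 months old, and the labels name no restriction for either. The labels do not give feeding times or fasting before the kidneys were taken, and the tissue held all cell types of the organ, so fewer cells of a type and less RNA per cell cannot be told apart.

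Fatty acids are the main fuel of the proximal tubule. They are taken up, bound and joined to coenzyme A, carried into mitochondria as carnitine esters, and shortened by the repeated cycle of dehydrogenation, hydration, oxidation and thiolysis. Peroxisomes handle very long and branched chains and pass shortened products on, and ketone bodies are made from the resulting acetyl-CoA or turned back into it. Many genes of these routes are known targets of the nuclear receptor PPARα, which binds pairs of AGGTCA-like repeats.

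Between 72.5% and 74.8% of gene probes were above background on aged CR arrays, against 71.5% to 73.7% on aged AL arrays and 64.2% to 69.9% on young arrays. Many arrays were as alike as repeat spots of 1 probe within an array. By that measure the 4 aged AL arrays were indistinguishable from each other, aged CR arrays 1 and 3 and arrays 2 and 4 formed pairs, and so did young arrays 1 and 2 and young arrays 3 and 4. The 12 arrays thus behaved as 5 samples, with a single one for aged AL. Calls below come from limma over the 12 arrays (adjusted p at most 0.05 over all probes tested) and measure the spread between arrays, part of which is technical. Every difference is on the log2 scale, and an error given after ± is the standard error of a fit over the 5 joined samples, in which the lone AL sample is assumed to vary like the others. In that 5-sample fit no member passed in any comparison; at an unadjusted p under 0.05 it gave 1 higher and 4 lower between the aged diets, 1 and 2 between aged AL and young, and 0 and 11 between aged CR and young kidneys. At that unadjusted threshold, 1207, 4331 and 5930 of all 25398 probes passed in these comparisons, both directions together. At an adjusted p of at most 0.05 the 5-sample fit called 0% of all probes in each direction between the diets. It called 0.0787% higher and 0.0354% lower with age, and 0.701% higher and 0.209% lower in aged CR against young kidneys. Slide series and scan were inferred here from parts of the image names in the file headers. By that reading all AL arrays were scanned apart from the other 8, and AL and young arrays came from different slide series. Those factors cannot be told apart from the groups. Aged CR arrays 3 and 4 shared the inferred slide series of the AL arrays, and CR arrays 1 and 2 that of the young arrays.

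Promoters are shown first for the members called with the largest drops between the aged diets (Acot12, Ehhadh and Pex11a), for Bdh1, the one member called higher, and for Hadha and Hadhb, which share a start region. Each sequence covers 250 bases before and 50 after the gene's start (RefSeq, GRCr8, given 5′ to 3′ on the gene's strand), with capitals marking GC boxes (GGGCGG) and CCAAT boxes (CCAAT) on either strand. Acot12 encodes a cytosolic thioesterase that splits acetyl-CoA (chr2:24721709-24722008, plus strand). Ehhadh encodes the inducible bifunctional enzyme of peroxisomal oxidation (chr11:92746159-92746458, plus strand). Pex11a encodes a membrane protein of peroxisome division (chr1:143096442-143096741, minus strand). Bdh1 encodes the mitochondrial dehydrogenase that interconverts acetoacetate and beta-hydroxybutyrate (chr11:82842587-82842886, minus strand).
Acot12: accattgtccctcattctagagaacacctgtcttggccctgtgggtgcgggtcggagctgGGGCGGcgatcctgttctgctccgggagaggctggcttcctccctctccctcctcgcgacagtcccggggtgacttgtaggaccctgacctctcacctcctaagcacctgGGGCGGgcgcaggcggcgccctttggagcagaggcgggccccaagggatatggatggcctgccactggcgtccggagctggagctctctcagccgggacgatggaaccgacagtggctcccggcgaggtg
Ehhadh: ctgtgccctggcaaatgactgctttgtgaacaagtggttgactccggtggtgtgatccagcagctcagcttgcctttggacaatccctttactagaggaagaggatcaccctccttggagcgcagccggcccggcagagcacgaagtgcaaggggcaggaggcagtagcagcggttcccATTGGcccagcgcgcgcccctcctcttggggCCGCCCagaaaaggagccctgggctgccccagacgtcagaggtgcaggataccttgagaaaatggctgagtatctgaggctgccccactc
Pex11a: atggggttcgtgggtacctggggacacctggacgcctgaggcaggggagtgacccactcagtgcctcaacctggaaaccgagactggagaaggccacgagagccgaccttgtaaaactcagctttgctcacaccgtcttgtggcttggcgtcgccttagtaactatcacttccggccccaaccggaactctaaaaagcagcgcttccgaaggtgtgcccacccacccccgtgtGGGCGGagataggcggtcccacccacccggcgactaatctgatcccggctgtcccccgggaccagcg
Bdh1: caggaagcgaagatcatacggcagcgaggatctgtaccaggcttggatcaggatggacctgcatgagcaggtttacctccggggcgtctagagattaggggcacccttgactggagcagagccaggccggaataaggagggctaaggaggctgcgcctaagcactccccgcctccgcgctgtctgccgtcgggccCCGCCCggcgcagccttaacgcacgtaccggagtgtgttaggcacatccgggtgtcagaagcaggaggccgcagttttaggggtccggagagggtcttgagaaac
Hadha and Hadhb encode the alpha and beta subunits of the mitochondrial trifunctional protein, which carries out the last steps of the cycle on long chains. Their windows lie head to head on chromosome 6 (chr6:31907551-31907850, plus strand, and chr6:31907451-31907750, minus strand), with starts 301 bases apart and 200 bases in common.
Hadha: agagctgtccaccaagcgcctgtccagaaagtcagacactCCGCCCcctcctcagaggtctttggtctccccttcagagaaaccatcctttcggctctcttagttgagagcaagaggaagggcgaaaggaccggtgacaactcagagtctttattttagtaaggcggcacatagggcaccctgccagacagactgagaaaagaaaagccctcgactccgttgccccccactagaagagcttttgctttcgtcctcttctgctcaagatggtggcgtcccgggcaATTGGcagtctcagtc
Hadhb: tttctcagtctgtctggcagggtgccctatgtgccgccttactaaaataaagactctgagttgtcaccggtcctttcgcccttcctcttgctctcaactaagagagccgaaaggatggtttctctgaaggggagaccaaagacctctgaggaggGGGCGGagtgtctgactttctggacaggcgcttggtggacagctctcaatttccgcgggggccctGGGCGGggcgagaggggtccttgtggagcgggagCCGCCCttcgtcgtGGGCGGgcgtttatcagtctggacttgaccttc
Of the 39 members with a promoter in the RefSeq table, 28 held GGGCGG, against 33.1% of all 33469 promoters of this length. CCAAT was found in 15 of the 39 and in 37.5% of all promoters, and the TATA box TATAAA in 4 of the 39 (Acsl5, Cd36, Echs1 and Fabp1) and in 14.2% of all. The direct repeat AGGTCANAGGTCA, a perfect form of the AGGTCA-like pairs that PPARα binds, was found in none of the 39 windows and in 0.0538% of all promoters. Its looser form AGGNCANAGGNCA, which includes the strict one, was found in 1 member promoter, that of Fabp1, and in 0.415% of all promoters. These counts describe letters within this window only.

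The comparison of the aged diets asked how restriction begun at 10 weeks of age changed kidney RNA at the same age. Members fell far more often than they rose: 16 of 38 tested members were lower in aged CR kidneys (42.1%, against a background of 5.98% of all probes) and 1 was higher (background 7.39%), while 21 did not pass. The median difference over the 38 members was -0.28, against 0.01 over all probes tested, and 30 of the 38 differences lay below 0. On 21 members the 4 CR arrays all lay below the 4 AL arrays (background 16.4%), and on 2 they all lay above (background 16.1%). Both pairs of CR arrays were below the AL mean for 28 of the 38 members (73.7%), against 36.2% of all probes. With the joined samples as a random block, 3 members (Ehhadh, Pex11a and Acot12) passed as lower and Bdh1 as higher, against backgrounds of 0.382% and 0.272%. Without AL array 3 the count of lower members was 10, with array median scaling also 10, and with CR arrays 1 and 3 or CR arrays 2 and 4 left out it was 6 or 8. Over all 25398 probes the lower counts in these settings were 956, 1270, 806 and 655. Without young arrays 1 and 2, or without 3 and 4, Acot8 also passed as higher, beside 3924 and 3688 of all probes.

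**Figure D1:**
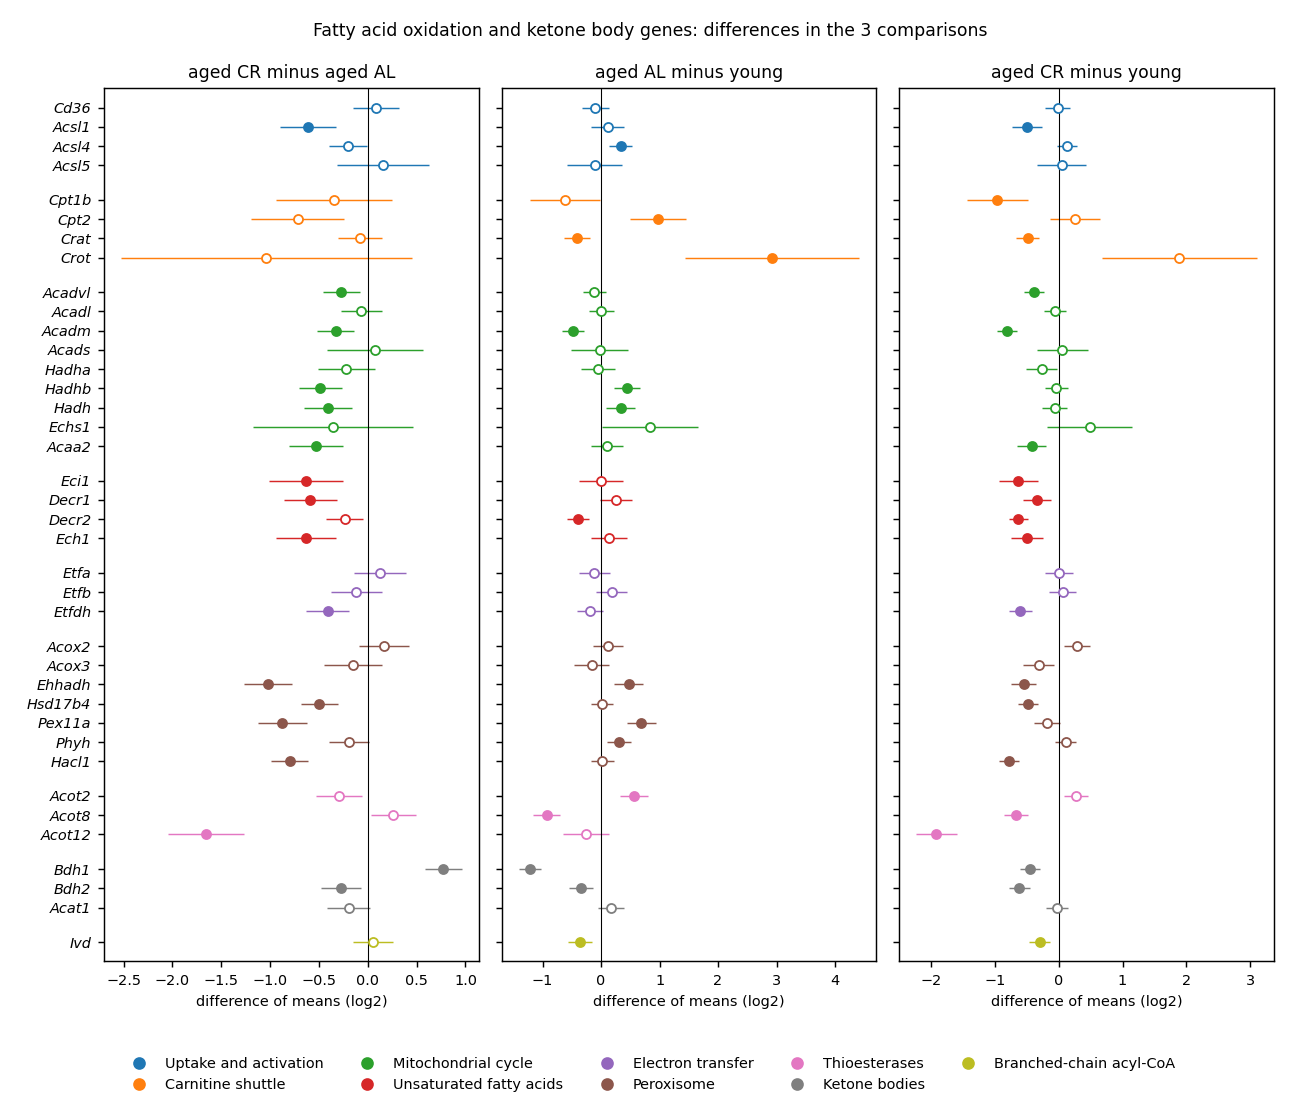
Differences of group means on the log2 scale (x axes) for the 38 tested members (rows, coloured by role) in the 3 comparisons. Filled points passed limma over 12 arrays and bars are standard errors from the 5-sample fit. In the left panel 16 filled points lie below 0 and 1, Bdh1, above; the horizontal scales of the panels differ.

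Peroxisomal genes held the 3 largest drops after Acot12 among the members that passed. Of 7 tested, 4 were lower (background 5.98%) and none higher (background 7.39%), with a median difference of -0.50. Ehhadh read 10.66, 10.62, 10.66 and 10.56 (log2 normalised intensity) on aged CR arrays 1 to 4, against 11.64, 11.73, 11.57 and 11.64 on the aged AL arrays. The CR arrays were all lower, by -1.02 ± 0.25, a 2.03-fold drop (adjusted p = 0.000107; 0.0218 with the joined samples as a block). Pex11a read 9.07, 9.45, 9.21 and 9.40 on CR arrays, against 10.19, 10.18, 10.16 and 10.11 on AL arrays. Its difference of -0.88 ± 0.25 passed as well (adjusted p = 0.00036; 0.0464 with the block), and a second Pex11a probe was also lower in CR, by -0.59 (adjusted p = 0.0115). Hacl1, the lyase of the alpha oxidation of branched fatty acids, read 10.88, 10.88, 10.68 and 10.65 in CR and 11.61, 11.57, 11.63 and 11.48 in AL. The groups did not overlap and differed by -0.80 ± 0.19 (adjusted p = 5.55e-05; 0.0734 with the block). Hsd17b4, the bifunctional enzyme for very long and branched chains, read 12.93, 12.99, 13.02 and 13.03 in CR and 13.52, 13.46, 13.57 and 13.39 in AL, a difference of -0.50 ± 0.19 (adjusted p = 0.00036; 0.163 with the block). Phyh, which starts alpha oxidation, differed by -0.19 ± 0.20, and the oxidases Acox2 and Acox3 by 0.16 ± 0.26 and -0.15 ± 0.29, none of which passed. Within the slide series that held all AL arrays and CR arrays 3 and 4, the 4 drops measured -1.04 for Ehhadh, -0.86 for Pex11a, -0.91 for Hacl1 and -0.46 for Hsd17b4.

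The thioesterases, which release free acids from acyl-CoA, did not move together. Acot12 read 6.22, 6.26, 6.27 and 6.32 on CR arrays and 8.05, 7.95, 7.78 and 7.95 on AL arrays. This was the largest difference of any member between the diets, -1.66 ± 0.39 or 3.16-fold lower in CR (adjusted p = 0.000299; 0.019 with the block), and -1.63 within the shared slide series. Acot2, the mitochondrial thioesterase, differed by -0.30 ± 0.23 over the 3 CR arrays with a value and did not pass (adjusted p = 0.164). Acot8, its peroxisomal counterpart, read 11.18, 11.04, 10.92 and 10.91 in CR against 10.69, 10.81, 10.69 and 10.83 in AL. All its CR arrays lay above the AL arrays, yet the difference of 0.26 ± 0.23 did not pass (adjusted p = 0.114).

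**Figure D2:**
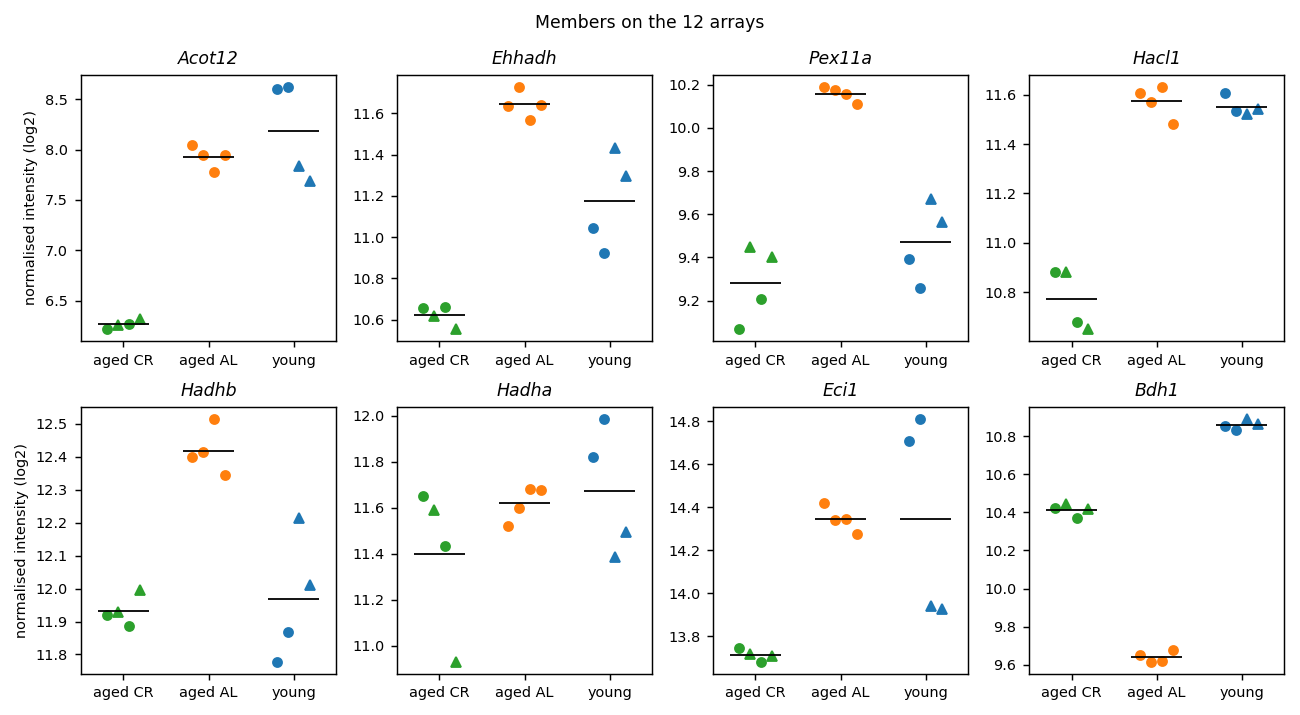
Log2 normalised intensity (y axes, each with its own range) of 8 members on every array of the aged CR, aged AL and young groups. Circles and triangles mark the 2 joined samples of a group, the AL arrays being 1 sample, and lines are group means; Bdh1 is the one gene shown with all CR arrays above all AL arrays.

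Enzymes for unsaturated chains move or reduce the bonds that the main cycle cannot handle. They were lower in CR for 3 of 4 genes tested (background 5.98%) and higher for none (background 7.39%). The CR arrays lay below the AL arrays for all 4 (background 16.4%). Ech1, a dienoyl-CoA isomerase, read 12.98, 13.01, 13.08 and 13.13 in CR and 13.72, 13.75, 13.67 and 13.61 in AL, a difference of -0.64 ± 0.31 (adjusted p = 0.0129). Eci1, the enoyl-CoA isomerase of mitochondria, read 13.74, 13.72, 13.68 and 13.71 in CR and 14.42, 14.34, 14.35 and 14.28 in AL, which is -0.63 ± 0.38 (adjusted p = 0.0432). Decr1, the mitochondrial dienoyl-CoA reductase, read 12.18, 12.17, 12.29 and 12.24 in CR and 12.92, 12.72, 12.83 and 12.76 in AL, which is -0.59 ± 0.27 (adjusted p = 0.00864). Its peroxisomal relative Decr2 differed by -0.24 ± 0.19 and missed the threshold (adjusted p = 0.0874). With the joined samples as a block the adjusted p of the 3 calls lay between 0.287 and 0.442.

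Within the mitochondrial cycle 5 of 9 tested members were lower in CR (background 5.98%) and none was higher (background 7.39%), with a median of -0.33. Acaa2, the thiolase that ends each turn, read 14.16, 14.16, 14.11 and 14.19 in CR and 14.61, 14.73, 14.70 and 14.70 in AL. The CR arrays were tightly grouped and all lower, by -0.53 ± 0.27 (adjusted p = 0.0127). Hadhb read 11.92, 11.93, 11.89 and 12.00 in CR and 12.40, 12.41, 12.51 and 12.35 in AL, a difference of -0.49 ± 0.22 (adjusted p = 0.00501). Its partner Hadha read 11.65, 11.59, 11.43 and 10.93 in CR and 11.52, 11.60, 11.68 and 11.68 in AL. These groups overlapped and the difference of -0.22 ± 0.29 did not pass (adjusted p = 0.447), although the genes share the start region printed above; the gap between the 2 subunits' differences was not tested. Hadh, the hydroxyacyl-CoA dehydrogenase for shorter chains, read 12.72, 12.70, 12.81 and 12.50 in CR and 13.18, 13.10, 13.09 and 12.98 in AL, which is -0.40 ± 0.25 (adjusted p = 0.0353).

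The acyl-CoA dehydrogenases, which open each turn and differ in chain length, moved less. Acadm, for medium chains, read 12.21, 12.05 and 12.12 on CR arrays 1, 3 and 4 (the spot of array 2 was flagged) and 12.51, 12.35, 12.53 and 12.44 in AL, which is -0.33 ± 0.19 (adjusted p = 0.0151). Acadvl, for very long chains, read 12.28, 12.35, 12.42 and 12.38 in CR and 12.64, 12.57, 12.74 and 12.58 in AL, which is -0.27 ± 0.19 (adjusted p = 0.0181). Acadl, for long chains, differed by -0.06 ± 0.21 and Acads, for short chains, by 0.07 ± 0.49. The hydratase Echs1 differed by -0.35 ± 0.82, and none of these 3 passed. Electrons from the dehydrogenases pass through Etfa and Etfb to Etfdh, the dehydrogenase that hands them to ubiquinone. Etfdh read 11.30, 11.26, 11.11 and 10.90 in CR and 11.61, 11.46, 11.58 and 11.56 in AL, a drop of -0.41 ± 0.22 (adjusted p = 0.028). Etfa and Etfb differed by 0.12 ± 0.27 and -0.12 ± 0.26 and did not pass. Ivd, the dehydrogenase of leucine breakdown, read 11.85, 11.90, 11.86 and 11.94 in CR and 11.75, 11.78, 11.86 and 11.93 in AL, with a difference of 0.05 ± 0.20.

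Upstream of mitochondria few members passed. Acsl1, a long-chain acyl-CoA synthetase, read 12.25, 12.02, 12.34 and 11.91 in CR and 12.74, 12.75, 12.76 and 12.72 in AL, a drop of -0.62 ± 0.29 (adjusted p = 0.0102). A second Acsl1 probe was lower by -0.82 (adjusted p = 0.00263), and another, near background, differed by -0.37 and did not pass (adjusted p = 0.548). The synthetases Acsl4 and Acsl5 differed by -0.20 ± 0.19 and 0.15 ± 0.47 and did not pass. Cd36, the fatty acid translocase, differed by 0.08 ± 0.24, while a dimmer probe of that gene, above background on 5 arrays, was lower in CR by -1.36 (adjusted p = 0.0435), so its probes disagree. None of the 4 genes of the carnitine shuttle passed. Crot, which makes medium-chain carnitine esters in peroxisomes, read 7.21, 7.33, 7.17 and 7.29 in CR and 8.37, 8.28, 8.28 and 8.23 in AL. Its 2 aged groups lay far apart, by -1.04 ± 1.49, and did not overlap, yet did not pass (adjusted p = 0.441) in a fit whose spread includes the widely split young arrays. Cpt2, of the inner membrane, read 7.99, 8.03, 7.79 and 7.76 in CR and 8.66, 8.67, 8.71 and 8.39 in AL, which is -0.72 ± 0.48 (adjusted p = 0.0833). Cpt1b, the muscle form of the outer membrane enzyme, differed by -0.35 ± 0.59 and Crat, the acetyltransferase, by -0.08 ± 0.22. In a fit over only the arrays of the 2 aged groups Crot, Cpt2 and Cpt1b passed as lower in CR, beside 3650 of all 25398 probes. That fit counts each array as a sample, although the AL arrays behaved as 1 sample.

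Ketone body genes gave the only member that was higher under restriction. Bdh1 read 10.42, 10.44, 10.37 and 10.42 on CR arrays, against 9.65, 9.62, 9.62 and 9.68 on AL arrays. The groups were 0.77 ± 0.19 apart, a 1.71-fold rise in CR (adjusted p = 7.84e-06; 0.00686 with the block), and 0.75 apart within the shared slide series. Bdh2, the cytosolic dehydrogenase of that name, read 10.96, 11.04 and 11.14 on CR arrays 1, 3 and 4 and 11.33, 11.31, 11.29 and 11.35 in AL, a drop of -0.27 ± 0.20 (adjusted p = 0.0356). Acat1, the mitochondrial acetoacetyl-CoA thiolase, differed by -0.20 ± 0.22 and did not pass. Oxct1, which commits ketone bodies to use as fuel, was not well above background on 11 of the 12 arrays.

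Ageing without restriction left the pathway without a common direction. Between aged AL and young kidneys, 9 of 38 members were higher (background 20.9%) and 7 lower (background 27.1%), with a median difference of 0.01 against -0.05 over all probes. Both shares lie near the background. Array median scaling, which shifts the median of all probes to -0.21, gave 4 higher and 14 lower, beside 3997 and 9490 of 25398 probes. The 4 AL arrays lay above the 4 young arrays for 9 members (background 19.7%) and below them for 7 (background 25.9%). Bdh1 gave the clearest fall, to the AL values above, against 10.86, 10.83, 10.89 and 10.86 on young arrays. The difference was -1.22 ± 0.19 (adjusted p = 2.51e-08; 3.47e-05 with the block), and -1.20 and -1.24 against the 2 young pairs taken singly. Acot8 fell likewise, against 11.83, 11.86, 11.47 and 11.59 in young kidneys, by -0.93 ± 0.23 (adjusted p = 2.79e-05; 0.00921 with the block). Pex11a was higher in AL than on the young arrays, which read 9.39, 9.26, 9.67 and 9.56, by 0.69 ± 0.25 (adjusted p = 0.00038; 0.0237 with the block). Its second probe, however, was lower in AL by -0.34 (adjusted p = 0.0478), so the direction of Pex11a with age depends on the probe. These 3 were the members that also passed with the joined samples as a block, against backgrounds of 5.85% higher and 6.32% lower.

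The other members that were lower with age were Acadm (-0.48 ± 0.19, against young values of 12.93, 12.91, 12.90 and 12.99), Crat (-0.41 ± 0.22), Decr2 (-0.40 ± 0.19), Ivd (-0.36 ± 0.20) and Bdh2 (-0.35 ± 0.20). Young arrays read 13.15, 13.22, 13.27 and 13.17 for Decr2, above all aged AL values of 12.89, 12.77, 12.79 and 12.77. For Ivd the young arrays read 12.25, 12.29, 12.15 and 12.06, again above all AL arrays. Of those that were higher, Ehhadh differed by 0.47 ± 0.25, Hadhb by 0.45 ± 0.22, Hadh by 0.34 ± 0.25, Phyh by 0.30 ± 0.20, Acot2 by 0.56 ± 0.23 and Acsl4 by 0.33 ± 0.19. Acsl4 read 12.46, 12.63, 12.56 and 12.43 in AL and 12.15, 12.28, 12.25 and 12.07 in young kidneys. Under array median scaling the differences of Acsl4, Hadhb, Hadh and Phyh turned to values below 0. Etfdh, with -0.19 ± 0.22, and Echs1, with 0.84 ± 0.82, did not pass. A dimmer Cd36 probe was called higher in AL, by 1.12 (adjusted p = 0.0261), whereas the chosen probe differed by -0.10 and did not pass. The second Acot2 probe was called higher as well, by 1.37 (adjusted p = 0.0145). With the joined samples as a block neither of these other probes passed (adjusted p = 0.430 and 0.290).

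**Figure D3:**
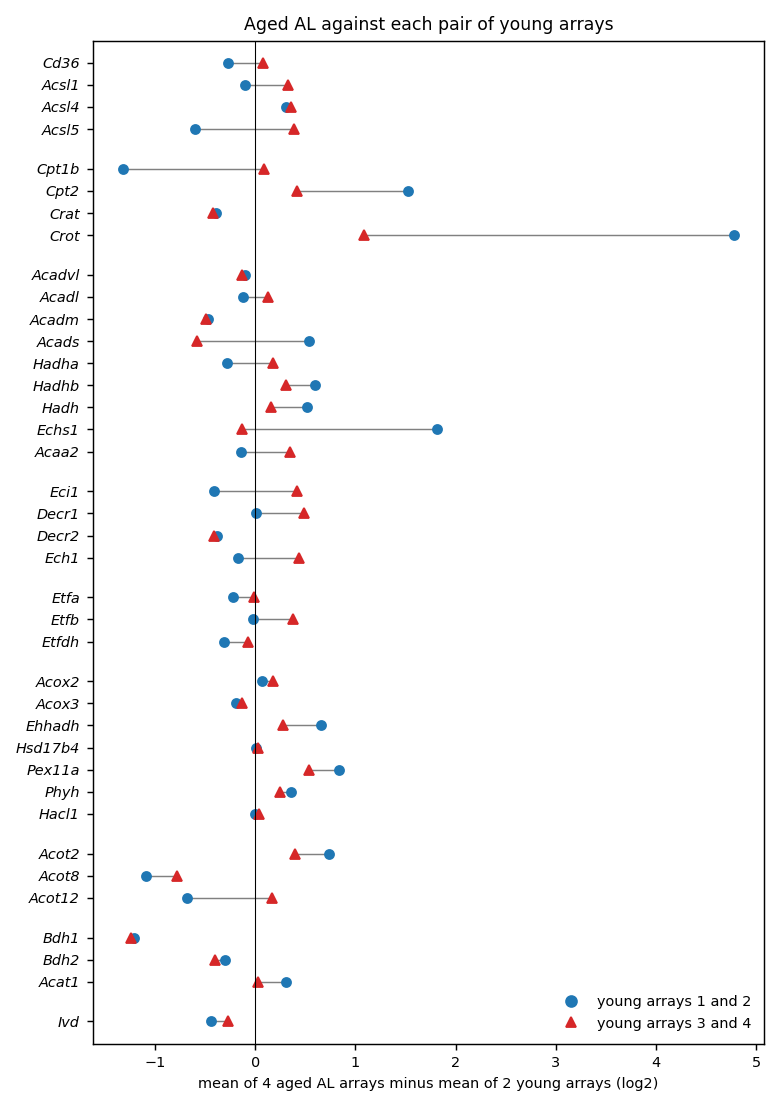
Aged AL mean minus the mean of young arrays 1 and 2 (circles) or of young arrays 3 and 4 (triangles), on the log2 scale, for each of the 38 tested members in rows. The 2 marks fall on opposite sides of 0 for 13 members, and they are farthest apart for Crot, at 4.77 and 1.08.

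The young arrays fell into 2 pairs that differed by more than 0.5 for 9 of the 38 members (23.7%, against 32.0% of all probes). For 13 members the AL mean lay between the pairs, so the sign of the difference with age turned with the pair used (34.2%, against 25.5% of all probes). Crot was the extreme: it read 3.65 and 3.38, near the floor of 2.94, on young arrays 1 and 2, and 7.06 and 7.35 on young arrays 3 and 4. Its rise of 2.93 ± 1.49 in AL (adjusted p = 0.0104) was 4.77 against the first pair and 1.08 against the second. Cpt2, with 7.11 and 7.07 against 8.19 and 8.19 in the young pairs, was higher in AL by 0.97 ± 0.48 overall (adjusted p = 0.00813), by 1.52 and 0.42 against the pairs. Echs1 showed the same split, 5.56 and 5.75 on young arrays 1 and 2 and 7.52 and 7.68 on young arrays 3 and 4. Cpt1b split the other way, 11.14 and 11.41 against 9.83 and 9.90, and so did Eci1 (14.71 and 14.81 against 13.94 and 13.92), Ech1 (13.87 and 13.84 against 13.22 and 13.28) and Acot12 (8.60 and 8.62 against 7.84 and 7.68). Young arrays 1 and 2 also had the lowest share of probes above background among the 12 arrays; the part of signal strength in these splits was not tested.

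The restricted aged kidneys were also set against the young ones. Here 19 of 38 members were lower (50% of those tested, background 24.6%) and none was higher (background 19.7%; 1, Crot, at an unadjusted p under 0.05, and 0 with the joined samples as a block), with a median of -0.31 against -0.02 over all probes. The CR arrays lay below all young arrays for 17 members (background 23%) and above them for 0 (background 17.8%). A second Acot2 probe was called higher, by 1.06 (adjusted p = 0.0479, and 0.307 with the block). Second probes of Pex11a, Acat1 and Acsl1 were called lower, by -0.93, -0.56 and -0.52 (adjusted p = 0.000185, 0.0232 and 0.0102). The chosen probes of Acot2, Pex11a and Acat1 did not pass. With the block 13 of the 38 tested members passed as lower, against a background of 11%, and none as higher, against 9.15%. All 13 were among the 19. Array median scaling, which shifts the median of all probes to -0.24, gave 29 lower, beside 10329 of 25398 probes. Acot12 again led, with a difference of -1.92 ± 0.32 (adjusted p = 2.03e-05; 0.000215 with the block), -2.34 and -1.49 against the young pairs, and -1.95 within the slide series shared by all young arrays and CR arrays 1 and 2. Acadm, of the mitochondrial cycle, was lower by -0.81 ± 0.16 (adjusted p = 1.67e-05; 0.00222 with the block). Hacl1 was lower than its young values of 11.61, 11.53, 11.52 and 11.54 by -0.78 ± 0.16 (adjusted p = 1.2e-05; 0.00377 with the block). Hsd17b4, at 13.50, 13.45, 13.45 and 13.46 in young kidneys, was lower by -0.48 ± 0.16 (adjusted p = 9.44e-05; 0.0112 with the block). Ehhadh, at 11.05, 10.92, 11.43 and 11.30 in young kidneys, was lower by -0.55 ± 0.20 (adjusted p = 0.00137; 0.02 with the block).

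All 4 enzymes for unsaturated chains were lower in restricted than in young kidneys (background 24.6%). Decr2 differed by -0.63 ± 0.16, Eci1 by -0.63 ± 0.31, Ech1 by -0.50 ± 0.25 and Decr1 by -0.34 ± 0.22. With the joined samples as a block Decr2 and Eci1 passed (adjusted p = 0.0238 and 0.0477), and Ech1 and Decr1 did not (0.0580 and 0.166). Against young arrays 1 and 2 alone, Eci1, Ech1 and Decr1 differed by -1.05, -0.80 and -0.58. Against young arrays 3 and 4 alone they differed by -0.22, -0.20 and -0.10. Cpt1b, lower by -0.96 ± 0.49 (adjusted p = 0.0245), split in the same way, -1.66 against the first pair and -0.26 against the second. Etfdh, at 11.78, 11.96, 11.53 and 11.72 in young kidneys, was lower by -0.60 ± 0.18 (adjusted p = 0.00102; 0.0534 with the block). Acsl1 was lower by -0.50 ± 0.24, -0.72 and -0.29 against the pairs, where young arrays read 12.84, 12.86, 12.51 and 12.32. Bdh2, at 11.58, 11.65, 11.78 and 11.65 in young kidneys, was the ketone gene farthest below them, by -0.62 ± 0.17 (adjusted p = 0.000102), and Bdh1 was lower by -0.45 ± 0.16 (adjusted p = 5.78e-05). Crot, by contrast, differed by 1.89 ± 1.22 and did not pass (adjusted p = 0.0704), and against young arrays 3 and 4 alone by 0.04. Crot was called higher without young array 3 (2.46, adjusted p = 0.0209) or without young array 4 (2.55, adjusted p = 0.0117), and Acot2 was called higher without young array 3.

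Beyond the 44 members, 56 further genes of these pathways were looked up, and 49 were tested. Between the aged diets 16 of the 49 were lower and none higher (2, Cpt1c and Acaca, at an unadjusted p under 0.05, and 0 with the block), with a median of -0.21; the lower share was 32.7%, against the background of 5.98%. With age 6 were higher (12.2%, background 20.9%) and 14 lower (28.6%, background 27.1%). In restricted against young kidneys 3 were higher (6.12%, background 19.7%) and 21 lower (42.9%, background 24.6%).

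**Figure D4:**
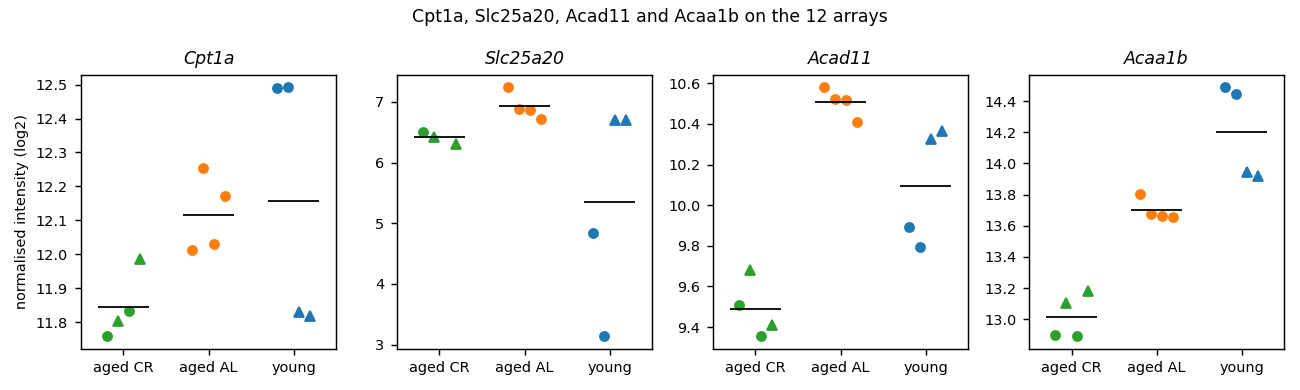
Log2 normalised intensity (y axes, each with its own range) of Cpt1a, Slc25a20, Acad11 and Acaa1b on every array of the aged CR, aged AL and young groups. Circles and triangles mark the 2 joined samples of a group (AL is 1 sample) and lines are means; for Acad11 and Acaa1b all CR arrays lie below all AL arrays.

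No difference passed between the aged diets for 2 genes of the entry into mitochondria, Cpt1a and Slc25a20. Cpt1a, the outer membrane carnitine palmitoyltransferase of kidney and liver, read 11.76, 11.80, 11.83 and 11.99 in CR and 12.01, 12.25, 12.03 and 12.17 in AL. The groups did not overlap but the difference of -0.27 ± 0.33 did not pass (adjusted p = 0.311). Slc25a20, the carnitine carrier, differed by -0.52 ± 1.10 over the 3 CR arrays with a value, with young arrays at 4.84, 3.14, 6.70 and 6.70. Acad11, an acyl-CoA dehydrogenase of peroxisomes and mitochondria, read 9.51, 9.68, 9.35 and 9.41 in CR and 10.58, 10.52, 10.52 and 10.41 in AL, lower in CR by -1.02 ± 0.28 (adjusted p = 0.000562). The peroxisomal thiolase Acaa1b read 12.90, 13.10, 12.89 and 13.18 in CR and 13.80, 13.68, 13.66 and 13.65 in AL, lower in CR by -0.68 ± 0.30 (adjusted p = 0.00778). The aged groups overlapped for neither gene. Abcd3, a peroxisomal acyl-CoA transporter, was lower by -0.53 ± 0.19 and Slc27a2, the very-long-chain acyl-CoA synthetase, by -0.35 ± 0.19. The peroxin Pex13, which helps import matrix enzymes, was lower by -0.31 ± 0.19, whereas 9 further peroxins differed by between -0.19 and 0.10 and did not pass. Ppargc1a, a coactivator of mitochondrial genes, was lower by -0.34 ± 0.21 (adjusted p = 0.0253), and Ppara itself differed by -0.42, which did not pass (adjusted p = 0.12). For pathway genes beyond the members only the brightest probe was reported, and Acad11, Slc27a2, Ppargc1a and Ppara had 2 probes each.

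**Figure D5:**
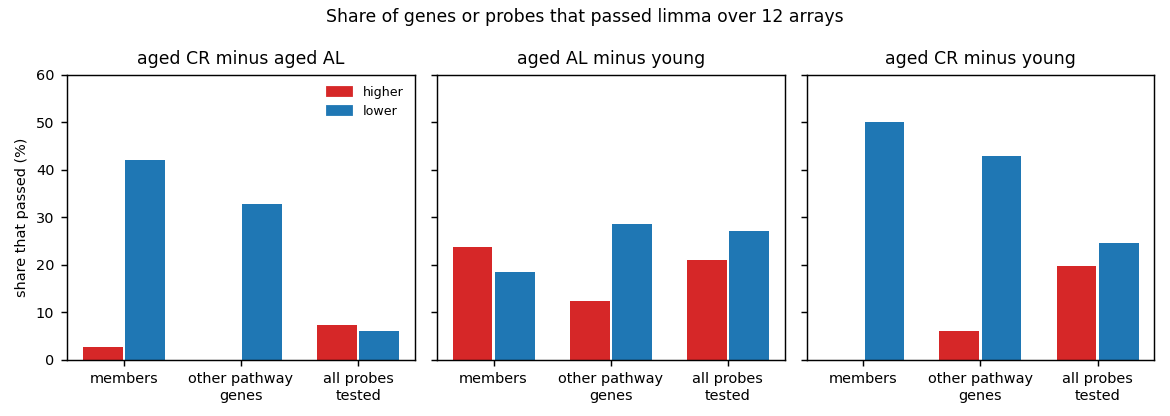
Share of tested genes or probes (y axis, percent) that passed limma over 12 arrays as higher (red) or lower (blue) among the 38 members, the 49 other pathway genes and all 25398 probes, in each comparison. In the left panel 42.1% of members were lower, against 5.98% of all probes; in the middle panel both member bars lie near those of all probes.

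Cell type markers were read beside these results. Between the diets 7.39% of all probes were called higher and 5.98% lower, the background for the diet counts below. Of 10 tested proximal tubule markers, 2 were lower in CR than in AL (Slc5a12 by -0.82 and Aqp1 by -1.62), none was higher and 8 did not pass. The differences lay below 0 for 6 of the 10 and above 0 for 4, with a median of -0.07 and a range of -1.62 to 0.26. The CR arrays all lay below the AL arrays for 4 markers (background 16.4%) and above them for 1 (background 16.1%). The mean log2 value of the 7 markers measured on all arrays lay between 10.9 and 11.2 on CR arrays, between 11.4 and 11.6 on AL arrays and between 10.5 and 11.6 on young arrays. Thick limb and distal markers were higher in CR for 4 of 6, with means of 11.8 to 11.9 on CR arrays, 11.4 to 11.5 on AL arrays and 11.6 to 12.0 on young arrays. Their part in the fall of the members was not tested. All 8 macrophage and leukocyte markers were higher in AL (background 20.9%) and in CR (background 19.7%) than in young kidneys. Between the diets 1 of the 8 differed (C1qb, by -0.52). Adipocyte markers were lower in CR for 2 of 5 (Fabp4 by -0.97 and Cfd by -0.84), with means of 7.67 to 7.81 on CR arrays, 8.16 to 8.24 on AL arrays and 7.32 to 7.61 on young arrays, and Plin1 was above background on no array. Of the other lists, 2 of 5 endothelial, 1 of 3 muscle and 1 of 2 tested liver markers were lower in CR than in AL, 0 of 2 adrenal markers passed, and none of the 4 lists had a marker that was higher. The liver markers Alb and Ttr, the muscle marker Myh4 and the adrenal marker Cyp11b1 were also above background on no array.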

How the data were processed

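The members and gene lists were chosen with earlier results of these data known. Kidney RNA was hybridised to 12 arrays of 1 colour. The deposited reports hold a spot intensity with local background subtracted and a second, median-scaled intensity, written by CodeLink Expression Analysis 4.1.0.29054, per the file headers. The deposited value table holds a ratio, each value being the median-scaled intensity over a constant per probe (within a relative tolerance of 0.01 for all 33848 probes compared), with column medians of 0.941 to 1.21. How the authors chose that constant is not given in sources used here.

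The background-subtracted intensity was used. Control spots were dropped, spots flagged contaminated, irregular or masked became missing, and saturated ones stayed in. Quantile normalisation over 33849 gene probes was followed by a floor of 7.70 (the negative controls' median, 2.94 as log2) and log2. Probes above background on at least 4 arrays with at least 2 values per group were tested (25398, 75.0%). Names came from the platform annotation and RefSeq accessions; 17088 probes had 1 symbol, 182 several and 16579 none. Signal over background and the number of arrays limit the precision.

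The main test was limma 3.58.1 under R 4.3.3 (eBayes after lmFit, two-sided, 1 fit over 12 arrays, no covariate) with Benjamini-Hochberg adjustment over all probes tested; the code was tested on simulated data. Arrays were joined when their difference over 11950 bright probes stayed within the repeat-spot noise of 9 bright controls (SD 0.121 to 0.201 log2). Array values were named for members that passed between the aged diets and for the largest difference of each role group in each comparison, and for other pathway genes for those that passed and for a few fixed by name, Cpt1a and Slc25a20 among them; some pathway genes are not reported here. Promoters were matched by symbol to RefSeq (GRCr8). Replicate numbers did not pair arrays across groups. Alternatives covered scaling, the deposited table, an offset, filters, flags, blocks, joined samples, other probes, fits of 2 groups and leaving out arrays.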

Additional observations from a re-analysis of the deposited data

Results flagged for a closer look

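Each tested member was checked in each group of 4 arrays with no missing value for 1 array that stood apart from the other 3, by a gap-to-range ratio above Dixon's critical value for 4 values. Of 110 groups checked, 5 stood out, where chance flags about 1 in 20. Cpt2 was lowest on aged AL array 4, at 8.39 against 8.66 to 8.71 on the others (ratio 0.855). Acads was highest on aged AL array 1, at 9.34 against 9.16 to 9.18 (ratio 0.881). Acat1 was lowest on aged AL array 2, at 12.67 against 12.92 to 12.93 (ratio 0.950). Crat was lowest on young array 2, at 12.31 against 12.37 to 12.38 (ratio 0.910). Hsd17b4 was highest on young array 1, at 13.50 against 13.45 to 13.46 (ratio 0.903). Array 4 of the AL group thus entered the uncalled Cpt2 difference between the diets, and none of the other 4 genes except Hsd17b4 passed in that comparison.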

How the results depend on the processing

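Counts of members are given here as higher and lower. Between the aged diets (1 and 16) the direction of all 17 called members held under every alternative that gave them a value. The count was 0 and 0 with joined samples in place of arrays. It was 10 lower with array median scaling, 3 with joined samples as a random block, 9 with slide series as a fixed block, 6 without CR arrays 1 and 3, and 8 without CR arrays 2 and 4. Over all 25398 probes the lower counts were 1270, 97, 667, 806 and 655 in that order. The member count was 2 higher in the fit over only the 2 groups and without either young pair, Acot8 joining Bdh1. Over all probes 3652 were higher in that fit, 3924 without young arrays 1 and 2 and 3688 without young arrays 3 and 4. Between aged AL and young kidneys (9 and 7) the counts were 0 and 0 with joined samples, 4 and 14 with array median scaling and also with the deposited value table, 1 and 2 with the random block, and 1 and 3 with the slide block. They were 14 higher without young arrays 1 and 2, and 13 lower without young arrays 3 and 4. Over all 25398 probes 5261 were higher and 8792 lower in those settings. Array median scaling called 3997 of them higher and 9490 lower, and the slide block 1646 and 2255. The deposited table called 3885 and 9400 of 25232. Of the called members, 4 turned under array median scaling and under the deposited table alike: Acsl4 (-0.19), Hadhb (-0.0493 and -0.0495), Hadh (-0.22) and Phyh (-0.23). Between aged CR and young kidneys (0 and 19) the lower count was 0 with joined samples and 29 with array median scaling or the deposited table. Those scalings called 10329 of 25398 and 10238 of 25232 probes lower. They also gave 26 members whose arrays did not overlap, where 17 were counted above. The share over all probes was not counted there. The higher count was 1 with an offset of 50 or slide series as a random block (Crot), 1 without young arrays 1 and 2 (Acsl5), 5 without young arrays 3 and 4, and 1 without CR arrays 1 and 3 (Acox2). Over all 25398 probes the higher counts in these settings were 5295, 5658, 5047, 7423 and 3277. Leaving out each array in turn gave 1 higher and 10 to 17 lower between the diets, and 8 to 10 and 7 to 8 with age. For restricted against young it gave 0 to 2 and 17 to 19. Of all 25398 probes, 1167 to 2099 were then higher and 922 to 1783 lower between the diets. With age the ranges were 4321 to 5989 and 5811 to 7350, and for restricted against young 4120 to 5860 and 5256 to 6826. Arrays with the same replicate number did not deviate together (r between -0.178 and 0.157). With the replicate block the counts were 1 and 13, 9 and 7, and 0 and 18, beside 1506 and 1143, 4895 and 6501, and 4658 and 5895 of all probes. The blocks by joined sample, the slide block and the array pairs left out were chosen after seeing the data. Signal over background kept Fabp1, Oxct1 and Acadsb out of the tests; without the filter on dim probes none of them was called.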

Other observations

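The split of the young arrays ran through several genes of peroxisomal or mitochondrial oxidation, in both directions. Gaps above 0.5 between the pairs were found for 23.7% of members and 32.0% of all probes. Cpt1a (12.49 and 12.49 against 11.83 and 11.82), Acaa1b (14.49 and 14.45 against 13.94 and 13.92) and Acot7 (12.32 and 12.38 against 11.49 and 11.52) were higher on young arrays 1 and 2. Among members, Acaa2 read 14.81 and 14.85 against 14.33 and 14.35, and Decr1 12.74 and 12.85 against 12.28 and 12.35. Crot, Cpt2, Echs1 and Acads were lower on arrays 1 and 2, Acads at 8.73 and 8.62 against 9.73 and 9.86. The pairs are not groups of the study, and their cause was not tested.

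Fabp4, a fatty acid binding protein of fat cells, macrophages and capillaries, was higher in aged AL than in young kidneys by 1.62 ± 0.20 and lower in aged CR than in aged AL kidneys by -0.97 ± 0.20. It read 6.78, 6.67, 6.64 and 6.68 on CR arrays, against 7.67, 7.47, 7.71 and 7.80 on AL arrays and 5.92 to 6.15 on young arrays. Both differences passed limma over 12 arrays (adjusted p = 9.52e-08 with age and 3.2e-05 between the diets) and with the joined samples as a block (0.000251 and 0.0384).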
